A study of Mus musculus with 5 samples.

Results

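Imprinted genes are transcribed mainly or only from the copy inherited from one parent. Here 38 imprinted genes of 15 mouse domains were followed in glioma and in normal brain. They were chosen by name, as genes known to be imprinted in mouse, and matched to array probes through the RefSeq accession of each probe. A probe was matched for 36 of the 38 genes, and 34 of them were among the 16891 genes that could be tested. H19 and Rian, the noncoding RNAs of the Igf2 and Dlk1-Dio3 domains, had no matched probe and were not analysed here. Phlda2, which limits placental growth, and Rtl1, a retrotransposon-derived gene of placenta and muscle, were not well above background on any array and have no usable level.

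The samples were 3 gliomas and 2 normal mouse brain samples, all taken at postnatal day 150, with the total RNA of each read on 1 single-colour Agilent mouse array. The gliomas are labelled MADM, which stands for mosaic analysis with double markers. In MADM, recombination between homologous chromosomes in dividing cells gives sparse, colour-marked mutant cells, and such a cell can hold the recombined stretch from a single parent in both copies. In published gliomas of this kind the mutated genes Trp53 and Nf1 lie on chromosome 11. The labels used here give no mutated gene, Cre driver, strain, sex or MADM chromosome for either group, and no brain region. They do not say that replicates are different mice, and p-values therefore cover only the spread among these 5 samples, which may be technical.

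Imprinting is set in the germline. A control region is methylated in the egg or in the sperm, and that mark is kept in body cells and directs whole clusters of neighbouring genes, some from the maternal and some from the paternal copy. In brain, many imprinted genes are marked by expression in neurons, above all in the hypothalamus, and several act on growth, metabolism and behaviour. A microarray of this kind reads the total of both copies, so allele use itself was not measured. Whether a lower level reflects fewer cells of a type or less RNA per cell cannot be told apart in these bulk samples.

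Levels are given on a log2 scale relative to the 75th percentile of the array, so that a gene at 0 has the signal of that percentile. Of 59305 spots per array other than controls, 65.9% to 70.3% were well above background on the glioma arrays, against 61.5% to 64.0% on the normal brain arrays. Precision is limited by having 5 arrays. All 5 were on the same slide and scanned together, with the gliomas in one row of it and normal brain in the other per the file headers, so slide row and group cannot be told apart. Changes are glioma minus normal brain on that log2 scale, ± the standard error of a limma fit over all genes, with n = 3 gliomas and n = 2 normal brain samples, and adjusted p refers to Benjamini-Hochberg adjustment over all 16891 genes.

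Imprinted genes went both ways in glioma. Of the 34 tested, 8 rose and 13 fell at an adjusted p under 0.05, while 13 did not pass. Mest, a hydrolase-fold gene, and the neighbouring Peg12 and Mkrn3 rose by more than 10-fold, whereas Magel2, Mirg and Usp29 fell by 9.12-fold to 15.1-fold. Among all genes tested, 51.4% were called, 23.6% as higher and 27.8% as lower. For the imprinted genes the shares were 61.8%, 23.5% and 38.2%, so that the share of rises was close to that of all genes. The values of gliomas and normal brain did not overlap in 27 of the 34, against 74.1% of all genes tested. These were 8 higher and 19 lower genes, where 35.2% and 38.8% of all genes lay wholly above or below normal brain. With the authors' unscaled values, 8 imprinted genes rose and 12 fell. There 63.7% of all calls were rises, against 46.0% in the scaled values, and the median change of all genes was 0.31 in place of -0.05. The count of imprinted genes called rests on both normal brain samples, since it was 11 without normal brain 1 and 12 without normal brain 2.

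**Figure D1:**
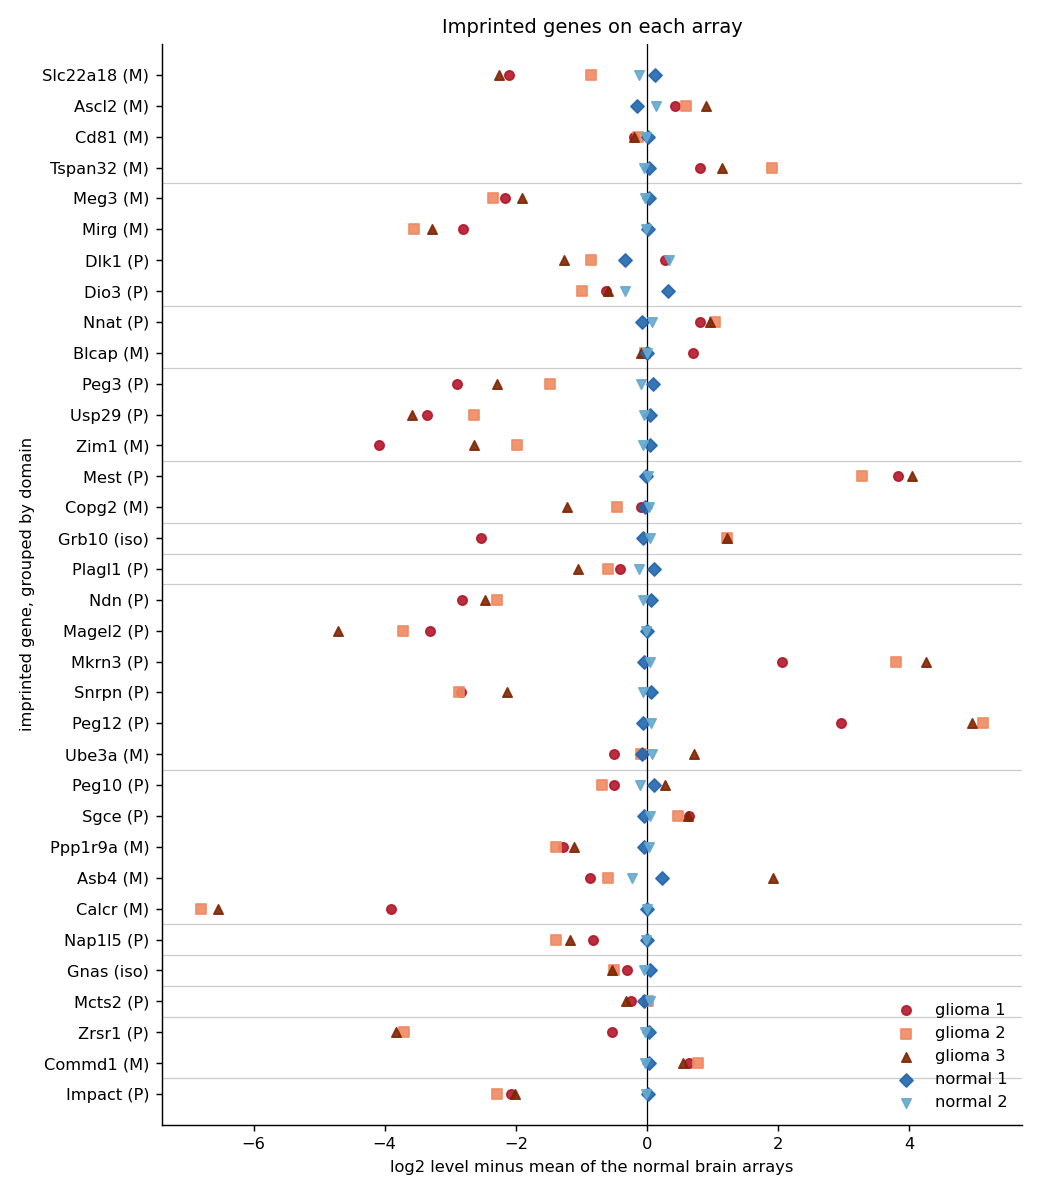
Level of each of the 34 tested imprinted genes on each array, as log2 level minus the mean of both normal brain arrays, with 1 row per gene and grey lines between domains. Letters in brackets give the class of expressed copy (M maternal, P paternal, iso depending on isoform), and points of Zim1 and Calcr include glioma arrays on which the probe was not well above background. Mest, Mkrn3 and Peg12 lie to the right on all glioma arrays, and Grb10 and Zrsr1 split glioma 1 from gliomas 2 and 3.

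Genes classed by either parental copy included both rises and falls. The class of each gene comes from general knowledge of mouse imprinting and may not hold in every tissue. Which copy was used in these samples was not measured. Of 14 tested genes classed as maternal, 3 rose (21.4%), 6 fell (42.9%) and 5 did not pass, with a median change of -0.38. Of 18 tested genes classed as paternal, 5 rose (27.8%), 7 fell (38.9%) and 6 did not pass, with a median of -0.71. Over all genes tested, 23.6% rose and 27.8% fell, and the median was -0.05. The remaining pair, Grb10 and Gnas, use different copies for different transcripts and did not pass. The 3 gliomas gave medians of -0.68, -0.52 and -0.66 for the maternal and -0.52, -0.92 and -1.11 for the paternal genes.

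**Figure D2:**
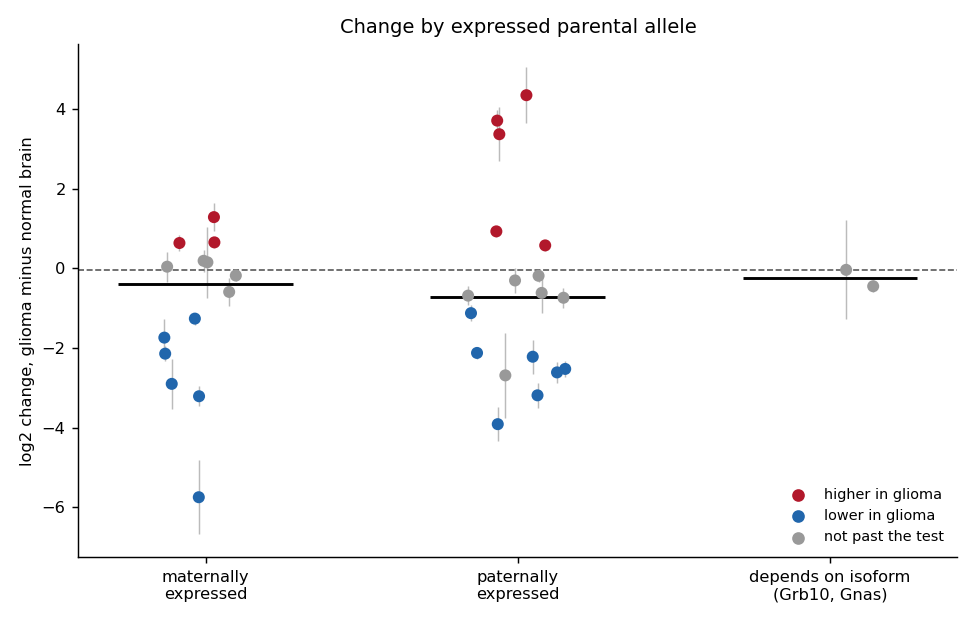
Change of each tested imprinted gene between glioma and normal brain on the log2 scale, in columns by the parental copy that each gene is classed as expressing. Points are genes with bars of 1 standard error, black lines are column medians, and the dashed line is the median of all genes tested. Both the maternal and the paternal column hold rises and falls.

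Markers of cell types moved with the groups. Over all genes tested, 23.6% were called as higher and 27.8% as lower. All 16 pan-neuronal genes fell, led by Nefm, Nefl and Nefh (-4.73, -4.67 and -4.49), with a summed level (log2 of the added signals) of 6.80 to 7.26 in the gliomas, against 9.66 to 9.70 in normal brain. Of 15 tested hypothalamic genes 13 fell, led by Avp, Oxt and Trh (-8.12, -7.51 and -5.95), with a summed level of 3.58 to 4.34 in the gliomas, against 6.99 to 7.12 in normal brain. Nkx2-1 was not well above background in any glioma, and Sim1, Otp and Hmx2 could not be tested. All 12 choroid plexus genes fell, with a summed level of 4.88 to 4.94, against 8.50 to 8.55. Enpp2 alone was at 4.84 to 4.89 in the gliomas, so their sum is mostly Enpp2 and does not show the fall of the rest. The part of these cell types in the falls of Magel2, Ndn, Snrpn, Meg3, Peg3, Usp29, Impact and Igf2 was not tested.

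Other lists differed in size and direction. Of 16 genes of meninges, fibroblasts and mural cells, which include Igf2 and Dcn, 13 fell and Igfbp2 rose, with a summed level of 4.89 to 5.51 in the gliomas, against 5.25 to 5.30 in normal brain. Igfbp2 alone was at 4.97, 4.26 and 5.17 in gliomas 1 to 3, against 2.32 and 2.38 in the normal brain samples. The glioma sums are thus mostly Igfbp2 and do not show the falls of the other genes. Of 16 oligodendrocyte progenitor genes 15 rose, led by Cspg4, Pdgfra and Olig2 (4.74, 4.56 and 4.49), with a summed level of 9.34 to 9.47, against 6.69 to 6.73. Of 14 astrocyte genes 7 fell and 7 did not pass, and of 12 oligodendrocyte genes 8 fell and 4 did not pass. Of 12 endothelial genes 10 fell, and of 7 tested red blood cell genes 6 fell. Without normal brain 1 or 2 the falls numbered 6 and 6 for endothelial, 4 and 3 for oligodendrocyte and 4 and 5 for astrocyte genes. Of 14 microglia and macrophage genes 7 rose and Itgam fell. The rises of this list numbered 4 without glioma 1, 2 without normal brain 1 and, by limma, 0 without normal brain 2, where 4 had an unadjusted p under 0.05. Itgam lost its call without glioma 2 or either normal brain sample. The summed level of microglia and macrophage genes was 7.56, 8.48 and 7.35 in gliomas 1 to 3, against 7.02 and 7.05 in normal brain, with glioma 2 the highest.

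Among the 34 tested of the 38 imprinted genes, the gliomas differed most from each other at the chromosome 11 genes Grb10 and Zrsr1. Their glioma ranges were 3.76 and 3.29. Kcnq1ot1 of chromosome 7, imprinted but outside the 38, had a range of 3.59. Grb10 encodes an adaptor that dampens insulin and IGF receptor signalling, and is expressed mainly from the maternal copy in most tissues and from the paternal copy in neurons. The level of Grb10 was -3.37, 0.38 and 0.38 in gliomas 1 to 3, against -0.89 and -0.78 in the normal brain samples. Glioma 1 was thus the lowest of the 5 samples, and gliomas 2 and 3 were above both normal brain samples. Zrsr1, a splicing factor retrogene expressed from the paternal copy, was at 2.59, -0.58 and -0.70 in gliomas 1 to 3, against 3.15 and 3.09 in the normal brain samples. Here glioma 1 lay close to normal brain and gliomas 2 and 3 lay more than 3 log2 units below it, so the order of the gliomas was the opposite of that at Grb10. Both probes were well above background on all 5 arrays. Commd1, the gene within which Zrsr1 lies and which is expressed more from the maternal copy in brain, was at 2.76, 2.88 and 2.66 in gliomas 1 to 3, against 2.14 and 2.08 in the normal brain samples, with the gliomas close to each other and above normal brain.

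In the comparison of groups neither Grb10 (-0.04 ± 1.25, adjusted p = 0.983) nor Zrsr1 (-2.69 ± 1.07, adjusted p = 0.0896) passed the test, and both values rest on glioma 1. Without glioma 1, Grb10 was 1.22 higher in glioma (adjusted p = 0.00497) and Zrsr1 was 3.76 lower (adjusted p = 0.0014). Commd1 rose by 0.66 ± 0.14, adjusted p = 0.0151, a call that was lost without normal brain 1 (adjusted p = 0.11) or normal brain 2 (adjusted p = 0.136).

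The genes around them had smaller differences between gliomas. The range between the highest and lowest glioma was 3.76 at Grb10 and 3.29 at Zrsr1, rank 96 and 147 of 16891 genes, against a median range of 0.50 over all genes and 0.48 over the 1363 tested genes of chromosome 11. On chromosome 11, 4 genes had a wider range than Grb10 and 11 a wider one than Zrsr1. The 5 nearest tested genes on each side of Grb10, in the order of the GRCm38.p6 assembly, had glioma ranges of 0.04 to 1.65, and those of Zrsr1 0.23 to 1.78. Cobl and Ddc, the tested genes next to Grb10 and both reported as imprinted in some mouse tissues, fell in glioma (-1.35 ± 0.38, adjusted p = 0.0333 and -2.18 ± 0.37, adjusted p = 0.00683). Ddc, which makes dopamine and serotonin from their precursors, was at -0.88, -0.41 and 0.33 in gliomas 1 to 3, against 1.92 and 1.81 in the normal brain samples, and Cobl, an actin nucleator, at 1.22, 0.90 and 2.09 in gliomas 1 to 3, against 2.74 and 2.75 in the normal brain samples. The call of Cobl was lost without glioma 1 (adjusted p = 0.0861), glioma 2 (0.0683) or either normal brain sample (0.132 for each). Over all tested genes of chromosome 11, the median difference from normal brain was -0.07, -0.12 and -0.17 in gliomas 1 to 3.

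Genes on which glioma 1 stood at least 3 log2 units from the mean of gliomas 2 and 3, with these within 0.5 of each other, were rare. This measure, chosen after the values were seen, was met by 21 of 16891 genes and by 4 of 1363 on chromosome 11, which were Grb10, Zrsr1, Sfi1 and Wfdc17. Summed pan-neuronal markers were at 7.24, 6.80 and 7.26 in gliomas 1 to 3, against 9.70 and 9.66 in the normal brain samples, and their part in this split was not tested. Which parent the chromosome 11 copies of each tumour came from was not measured.

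**Figure D3:**
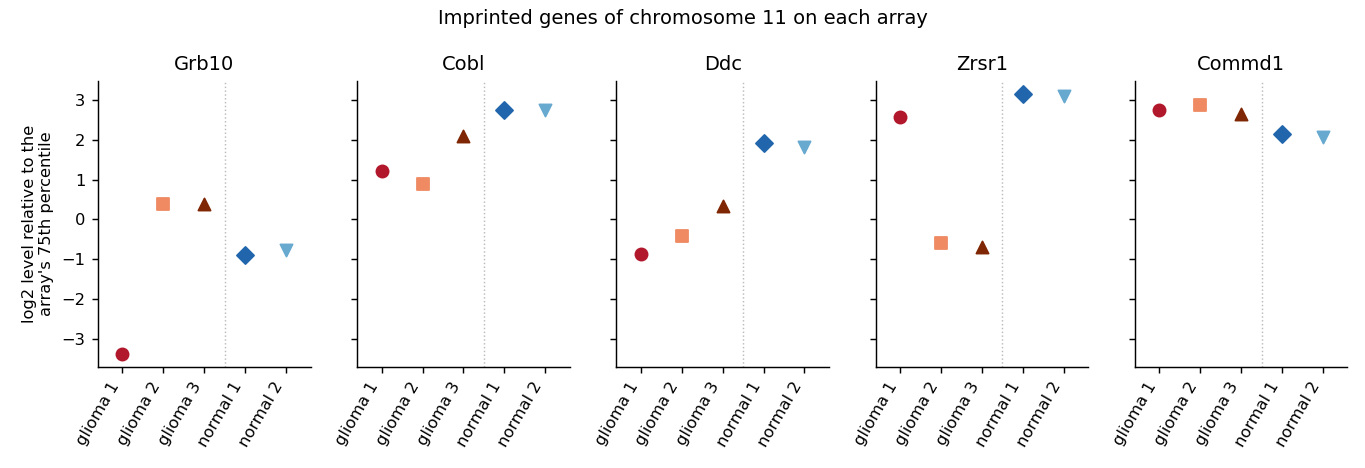
Log2 level relative to the 75th percentile of the array, on each of the 5 arrays, for the chromosome 11 genes Grb10, Cobl, Ddc, Zrsr1 and Commd1, with the dotted line between gliomas and normal brain. Glioma 1 is the lowest sample at Grb10 and the highest glioma at Zrsr1, while the 3 gliomas lie close together at Commd1.

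The promoter windows of these opposite genes are shown because CpG dinucleotides, in capitals, are where a parental methylation mark can sit. Each runs 5′ to 3′ from 250 bases before to 50 bases after a RefSeq start, in GRCm38.p6. Grb10 has 2 windows in the table, with 45 and 9 CpGs, and Zrsr1 has 1, with 10. Which of the Grb10 starts the array probe reads was not determined, and methylation was not measured.
Grb10, chr11:12037371-12037670, minus strand: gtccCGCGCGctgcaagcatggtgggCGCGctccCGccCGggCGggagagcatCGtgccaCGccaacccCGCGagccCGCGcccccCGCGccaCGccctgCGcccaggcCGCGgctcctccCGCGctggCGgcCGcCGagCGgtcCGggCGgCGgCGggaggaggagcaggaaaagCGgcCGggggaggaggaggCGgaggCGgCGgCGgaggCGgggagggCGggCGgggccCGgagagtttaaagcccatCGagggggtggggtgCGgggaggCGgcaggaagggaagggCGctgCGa
Grb10, chr11:12027922-12028221, minus strand: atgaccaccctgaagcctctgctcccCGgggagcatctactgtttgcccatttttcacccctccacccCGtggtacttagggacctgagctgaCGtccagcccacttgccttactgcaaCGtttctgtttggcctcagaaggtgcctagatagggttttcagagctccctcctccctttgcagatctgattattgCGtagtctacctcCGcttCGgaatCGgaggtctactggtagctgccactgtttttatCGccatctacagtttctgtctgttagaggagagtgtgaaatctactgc
Zrsr1, chr11:22971755-22972054, plus strand: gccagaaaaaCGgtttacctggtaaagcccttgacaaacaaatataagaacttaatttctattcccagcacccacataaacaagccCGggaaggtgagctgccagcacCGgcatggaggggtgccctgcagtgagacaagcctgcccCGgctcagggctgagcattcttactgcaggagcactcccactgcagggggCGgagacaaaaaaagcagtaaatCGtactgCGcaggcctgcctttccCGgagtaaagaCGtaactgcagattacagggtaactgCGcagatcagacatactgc

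The Prader-Willi/Angelman domain of chromosome 7 held rises and falls side by side. Its paternally expressed genes lie in the order Snrpn, Ndn, Magel2, Mkrn3 and Peg12. Over the 1361 tested genes of chromosome 7, 14.0% were called as higher and 30.5% as lower, with a median change of -0.21. Over all genes tested these were 23.6%, 27.8% and -0.05. Peg12, a FRAT family gene whose protein binds the kinase GSK3, was at -1.09, 1.08 and 0.91 in gliomas 1 to 3, against -4.11 and -4.00 in the normal brain samples. All gliomas lay well above normal brain, glioma 1 least, and the rise was 4.35 ± 0.70, adjusted p = 0.00567, or 20.5-fold. Its second, dimmer probe gave a smaller difference of 1.84. Mkrn3, a ubiquitin ligase known for holding back the onset of puberty, was at -1.98, -0.23 and 0.23 in gliomas 1 to 3, against -4.07 and -3.99 in the normal brain samples. It rose by 3.37 ± 0.68, adjusted p = 0.0116, or 10.4-fold, again with glioma 1 the lowest glioma, and this call was lost without normal brain 1 (adjusted p = 0.061) or normal brain 2 (adjusted p = 0.0577).

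The 3 other paternally expressed genes of this domain fell. Magel2, a MAGE family gene of the hypothalamus, was at -2.37, -2.77 and -3.78 in gliomas 1 to 3, against 0.95 and 0.93 in the normal brain samples, a change of -3.91 ± 0.43, adjusted p = 0.00176. Ndn, or necdin, a MAGE family gene of postmitotic neurons, was at 0.61, 1.15 and 0.96 in gliomas 1 to 3, against 3.49 and 3.37 in the normal brain samples, with a change of -2.53 ± 0.20, adjusted p = 0.000751. Snrpn, which encodes the neuronal splicing protein SmN, was at 2.19, 2.16 and 2.88 in gliomas 1 to 3, against 5.08 and 4.96 in the normal brain samples, with a change of -2.61 ± 0.27, adjusted p = 0.00139, and all 3 of its detected probes were lower. In each of these the gliomas lay below both normal brain samples without overlap. Ube3a, the ubiquitin ligase expressed from the maternal copy in neurons, was at -0.69, -0.29 and 0.53 in gliomas 1 to 3, against -0.26 and -0.12 in the normal brain samples, so that the groups overlapped (0.04 ± 0.38, adjusted p = 0.929).

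Genes beside this domain that are classed as expressed from both copies were examined from a fixed list. Nipa1, Nipa2, Cyfip1, Tubgcp5 and Herc2 did not pass, with changes between -0.61 and 0.68. The GABA receptor subunit genes Gabra5 and Gabrg3 fell by 4.34 and 2.52, and Oca2, detected in 1 of 3 gliomas, by a fitted 2.40. The call of Oca2 was lost without normal brain 1 (adjusted p = 0.0528).

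**Figure D4:**
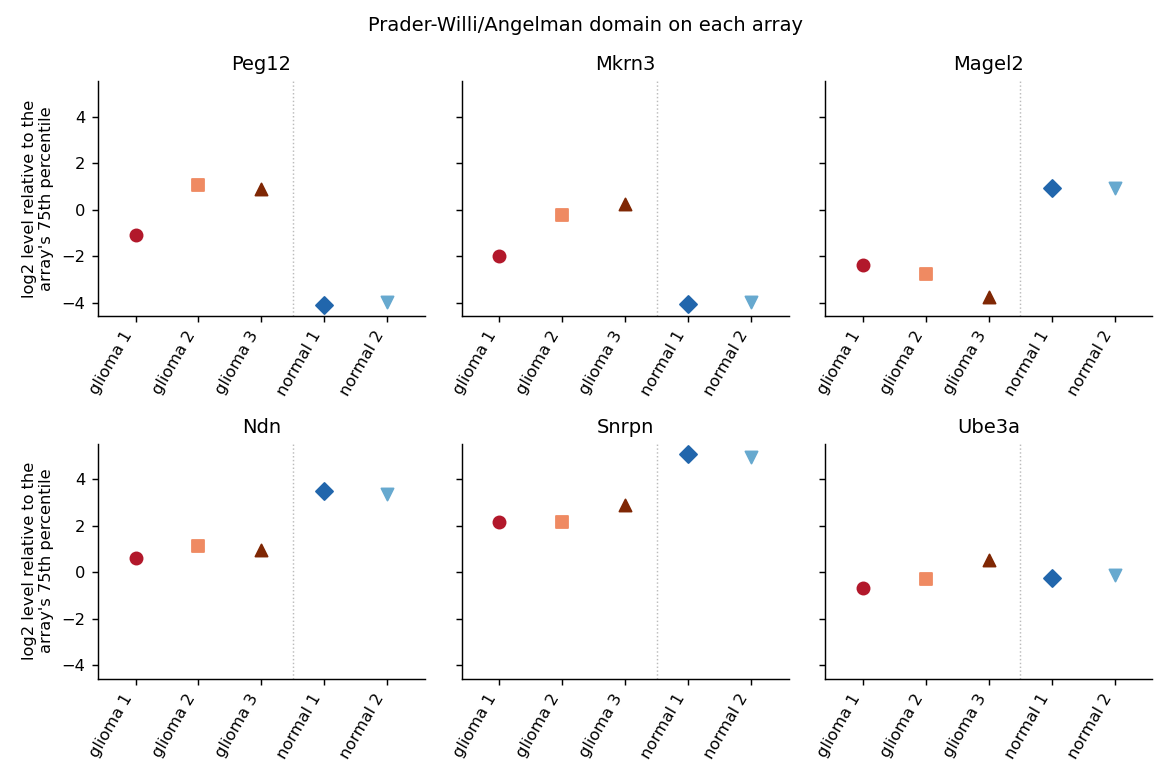
Log2 level relative to the 75th percentile of the array for 6 genes of the Prader-Willi/Angelman domain on each array. Peg12 and Mkrn3 are higher in all 3 gliomas than in normal brain, Magel2, Ndn and Snrpn are lower in all 3, and the groups overlap at Ube3a.

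Promoter windows of the pair that rose are given here, with CpGs in capitals. Mkrn3 and Peg12 have 15 and 12 CpGs, and neither window holds the hexamer TGCCGC, the motif of the imprint-keeping factor Zfp57, on either strand.
Mkrn3, chr7:62420104-62420403, minus strand: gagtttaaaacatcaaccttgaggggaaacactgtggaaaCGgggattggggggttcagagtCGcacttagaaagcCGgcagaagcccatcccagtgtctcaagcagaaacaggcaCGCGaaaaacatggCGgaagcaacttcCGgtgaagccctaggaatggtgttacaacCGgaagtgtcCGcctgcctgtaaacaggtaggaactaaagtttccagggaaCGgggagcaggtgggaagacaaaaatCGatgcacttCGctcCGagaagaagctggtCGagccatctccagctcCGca
Peg12, chr7:62464461-62464760, minus strand: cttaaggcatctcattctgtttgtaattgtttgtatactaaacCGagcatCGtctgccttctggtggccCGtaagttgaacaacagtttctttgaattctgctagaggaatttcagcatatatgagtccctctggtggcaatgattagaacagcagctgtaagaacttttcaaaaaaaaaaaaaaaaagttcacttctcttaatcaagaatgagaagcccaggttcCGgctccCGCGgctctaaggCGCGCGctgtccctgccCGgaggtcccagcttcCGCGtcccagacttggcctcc

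Mest showed the second largest rise among the imprinted genes. This paternally expressed gene of chromosome 6, known for its activity in growing embryonic tissue, was at 3.94, 3.40 and 4.16 in gliomas 1 to 3, against 0.11 and 0.13 in the normal brain samples on a probe printed 10 times per array. The rise was 3.72 ± 0.26, adjusted p = 0.000568, or 13.1-fold, and its other detected probes gave differences of 1.89 and 1.92. It was called under every alternative tried. Copg2, the coatomer subunit gene that overlaps its end and is expressed from the maternal copy, was at 1.82, 1.46 and 0.69 in gliomas 1 to 3, against 1.88 and 1.95 in the normal brain samples, with glioma 3 the lowest (-0.59 ± 0.35, adjusted p = 0.215). Of the nearby genes classed as expressed from both copies, Cep41, a ciliary protein gene, rose by 1.21 ± 0.37, adjusted p = 0.0421. That call was lost without glioma 1 (adjusted p = 0.0527), glioma 2 (0.104) or either normal brain sample. Klhdc10 (0.52 ± 0.18) and Tnpo3 (-0.03 ± 0.14) did not pass. Klf14, also of chromosome 6, rose by 2.81 ± 0.42, adjusted p = 0.00439. Klf14 was read from a separate list of genes reported as imprinted in some mouse tissue. Mest has 3 windows in the promoter table. That shown, with 17 CpGs in capitals, holds the Zfp57 hexamer 2 times, counting both strands, as does an overlapping window, while the remaining one has 8 CpGs and no hexamer. Which start the array probes read was not determined.
Mest, chr6:30737800-30738099, plus strand: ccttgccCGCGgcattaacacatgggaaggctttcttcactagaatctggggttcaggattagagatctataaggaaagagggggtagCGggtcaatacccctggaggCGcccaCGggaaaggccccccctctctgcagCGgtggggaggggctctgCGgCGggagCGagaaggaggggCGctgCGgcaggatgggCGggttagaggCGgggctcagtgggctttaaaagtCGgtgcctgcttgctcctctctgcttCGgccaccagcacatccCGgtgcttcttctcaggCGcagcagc

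All 3 genes followed here as members of the Peg3 domain on proximal chromosome 7 fell. Peg3, a zinc finger gene with roles in maternal behaviour and cell death, was at -1.41, 0.00 and -0.81 in gliomas 1 to 3, against 1.57 and 1.39 in the normal brain samples. Usp29, a deubiquitinase gene read from the same start region in the opposite direction, was at -0.24, 0.47 and -0.46 in gliomas 1 to 3, against 3.16 and 3.07 in the normal brain samples. The gliomas lay below normal brain at both, with changes of -2.22 ± 0.43, adjusted p = 0.0102 and -3.19 ± 0.31, adjusted p = 0.00116. Zim1, a maternally expressed zinc finger gene beside them, was at -7.34, -5.23 and -5.88 in gliomas 1 to 3, against -3.20 and -3.30 in the normal brain samples, but its brightest probe was well above background on 1 of 3 glioma arrays, so its change (-2.90 ± 0.63, adjusted p = 0.0149) is a fitted value and not a measured fold. Peg3 and Zim1 lost their calls without normal brain 1 (adjusted p = 0.0617 and 0.0741) or normal brain 2 (adjusted p = 0.0513 and 0.068). Zim3, also of chromosome 7, did not pass (-0.29 ± 0.18, adjusted p = 0.224). Zim3 was read from a separate list of genes reported as imprinted in some mouse tissue. The promoter windows of Peg3 and Usp29 share 263 of their 300 bases, and that of Usp29 is shown for both, with its 17 CpGs in capitals.
Usp29, chr7:6730333-6730632, plus strand: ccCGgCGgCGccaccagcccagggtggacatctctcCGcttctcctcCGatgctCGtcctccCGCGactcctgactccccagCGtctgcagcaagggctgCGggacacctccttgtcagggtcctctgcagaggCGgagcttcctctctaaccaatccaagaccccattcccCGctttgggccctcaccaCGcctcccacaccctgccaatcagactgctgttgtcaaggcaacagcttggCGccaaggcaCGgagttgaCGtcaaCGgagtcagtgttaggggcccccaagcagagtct

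In the Dlk1-Dio3 domain of chromosome 12 the maternally expressed noncoding RNAs fell and the paternally expressed coding genes did not pass. Meg3, a long noncoding RNA abundant in neurons, was at 3.82, 3.64 and 4.09 in gliomas 1 to 3, against 6.03 and 5.96 in the normal brain samples. Mirg, the host transcript of a large microRNA cluster, was at 0.87, 0.12 and 0.39 in gliomas 1 to 3, against 3.68 and 3.66 in the normal brain samples. These are changes of -2.14 ± 0.18, adjusted p = 0.000847 and -3.21 ± 0.25, adjusted p = 0.000696, or 4.41-fold and 9.27-fold lower, and both were called under every alternative. The 3 probes of Meg3 gave differences of -2.14 to -3.66. Dlk1, a membrane protein with EGF repeats that acts in Notch signalling, was at 1.68, 0.55 and 0.13 in gliomas 1 to 3, against 1.07 and 1.73 in the normal brain samples, so glioma 1 lay within the range of normal brain (-0.61 ± 0.51, adjusted p = 0.356). Dio3, the deiodinase that inactivates thyroid hormone, was dim at -5.40, -5.77 and -5.38 in gliomas 1 to 3, against -4.45 and -5.11 in the normal brain samples, with no overlap (-0.74 ± 0.26, adjusted p = 0.0635).

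Of the fixed genes beside the Dlk1-Dio3 domain, Wars, Wdr25, Slc25a29, Ppp2r5c and Dync1h1 did not pass, with changes between -0.41 and 0.31, and Yy1, a zinc finger transcription factor gene, rose by 0.80 ± 0.16, adjusted p = 0.0114, a call lost without either normal brain sample (0.118 and 0.0543). Begain, a postsynaptic scaffold gene at the edge of the domain that is imprinted in sheep, fell by 2.76 ± 0.30 (adjusted p = 0.00162).

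At the Kcnq1ot1 domain of distal chromosome 7 the tested members are classed as expressed from the maternal copy. This class may not hold in brain, and which copy they use in these samples was not measured. Slc22a18, an organic cation transporter gene, fell: it was at -3.61, -2.36 and -3.76 in gliomas 1 to 3, against -1.38 and -1.63 in the normal brain samples (-1.74 ± 0.46, adjusted p = 0.0284). Tspan32, a tetraspanin gene of blood cells, rose, with levels of -2.10, -1.01 and -1.77 in gliomas 1 to 3, against -2.88 and -2.95 in the normal brain samples (1.29 ± 0.34, adjusted p = 0.0289). The 3 gliomas of Ascl2, a basic helix-loop-helix factor of placenta and intestinal stem cells, were slightly above normal brain at -2.14, -1.97 and -1.67 in gliomas 1 to 3, against -2.71 and -2.42 in the normal brain samples (0.64 ± 0.20, adjusted p = 0.0474). Cd81, a tetraspanin present in most cells, was bright at 6.14, 6.21 and 6.14 in gliomas 1 to 3, against 6.36 and 6.32 in the normal brain samples, with the gliomas just below normal brain (-0.18 ± 0.13, adjusted p = 0.293). The calls of Slc22a18, Tspan32 and Ascl2 were each lost without either normal brain sample (adjusted p = 0.0958 to 0.273). They were also lost without glioma 3 (adjusted p = 0.0571 to 0.0654), that of Slc22a18 without glioma 1 (0.0756) and that of Ascl2 without glioma 2 (0.093).

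The controlling RNA of this domain split the gliomas. Kcnq1ot1, a paternally expressed long noncoding RNA that silences its neighbours in cis, was at -3.11, 0.48 and -2.87 in gliomas 1 to 3, against 0.80 and 0.86 in the normal brain samples. Glioma 2 lay near normal brain and gliomas 1 and 3 lay far below it. Cdkn1c, the maternally expressed inhibitor of cyclin-dependent kinases, was at 0.32, -1.35 and 0.53 in gliomas 1 to 3, against 1.13 and 1.22 in the normal brain samples, and here glioma 2 was the lowest sample. Neither passed the test (-2.66 ± 1.15, adjusted p = 0.11 and -1.35 ± 0.60, adjusted p = 0.118). Without glioma 2, Kcnq1ot1 fell by 3.82 (adjusted p = 0.00237) and Cdkn1c by 0.75 (adjusted p = 0.0264). Both are outside the 38 genes and were singled out after their values were seen. At Slc22a18, Tspan32 and Cd81 glioma 2 was instead the highest glioma, and at Ascl2 it lay between the other gliomas. Silencing of these genes by Kcnq1ot1 was not tested. Summed oligodendrocyte markers were at 7.07, 8.51 and 6.39 in gliomas 1 to 3, against 8.66 and 8.77 in the normal brain samples. Their part in the glioma split at Kcnq1ot1 and Cdkn1c was not tested. Kcnq1, the potassium channel gene that hosts Kcnq1ot1, was at -4.34, -5.23 and -4.06 in gliomas 1 to 3, against -3.88 and -4.67 in the normal brain samples, with overlapping groups. Which strand the Kcnq1ot1 probe reads was not determined.

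**Figure D5:**
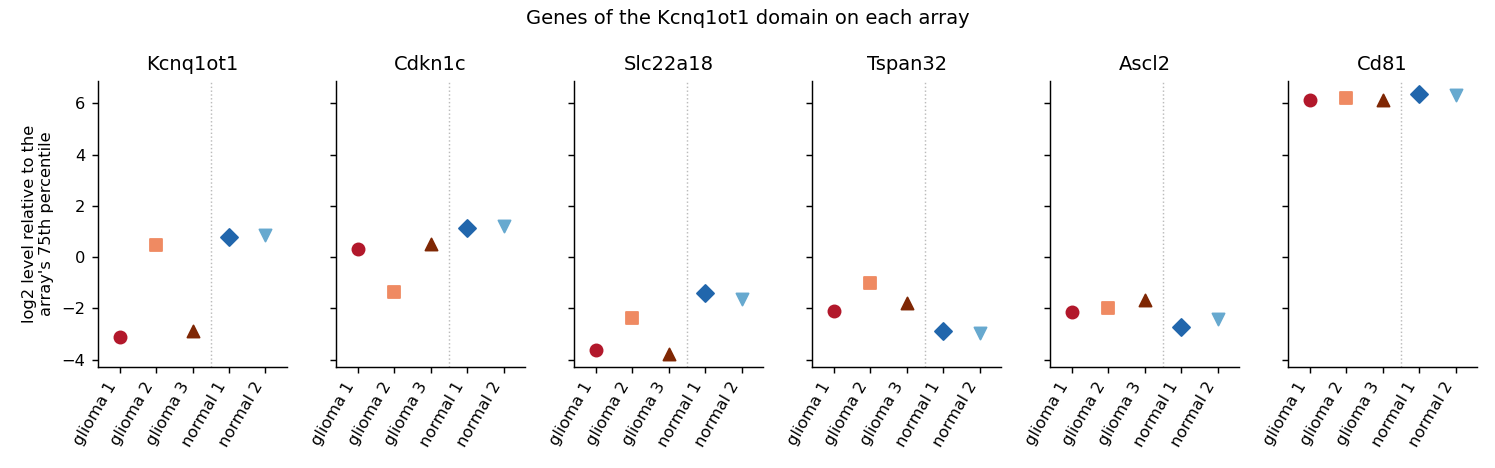
Log2 level relative to the 75th percentile of the array for 6 genes of the Kcnq1ot1 domain on each array. Glioma 2 is near normal brain at Kcnq1ot1 and the lowest sample at Cdkn1c, while gliomas 1 and 3 lie close to each other at both. At Slc22a18, Tspan32 and Cd81 glioma 2 is the highest glioma.

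The Peg10/Sgce domain of chromosome 6 was mixed. Sgce, the paternally expressed epsilon-sarcoglycan gene, rose with levels of 2.33, 2.16 and 2.32 in gliomas 1 to 3, against 1.65 and 1.74 in the normal brain samples (0.58 ± 0.14, adjusted p = 0.0204). Peg10, a retrotransposon-derived gene that shares its start region with Sgce, was dim at -4.06, -4.25 and -3.28 in gliomas 1 to 3, against -3.46 and -3.67 in the normal brain samples, and its groups overlapped (-0.30 ± 0.33, adjusted p = 0.473). Ppp1r9a, or neurabin, an actin-binding gene of synapses, fell: it was at 3.34, 3.23 and 3.50 in gliomas 1 to 3, against 4.58 and 4.65 in the normal brain samples (-1.26 ± 0.15, adjusted p = 0.00216). Asb4, an ankyrin repeat gene, was at -2.22, -1.95 and 0.57 in gliomas 1 to 3, against -1.13 and -1.58 in the normal brain samples, with glioma 3 above and the other two gliomas below normal brain (0.15 ± 0.90, adjusted p = 0.896). Calcr, the calcitonin receptor gene, was at -5.32, -8.22 and -7.97 in gliomas 1 to 3, against -1.42 and -1.42 in the normal brain samples. Its probe was well above background on glioma array 1 and not on the other two, so the change of -5.75 ± 0.93, adjusted p = 0.0057 is a fitted value. The call of Sgce was lost without either normal brain sample (adjusted p = 0.174 and 0.13).

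Neighbours of this domain that are classed as expressed from both copies also moved. Casd1, Pdk4 and Dync1i1 fell by 1.15, 1.74 and 3.33, and Slc25a13 rose by 1.34. The calls of Pdk4 and Slc25a13 were lost without either normal brain sample (adjusted p = 0.0517 to 0.091). Dync1i1 encodes a dynein chain of neurons and Pdk4 a kinase that restrains pyruvate oxidation.

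Several imprinted genes lie inside another gene, and the pairs differed in whether host and guest moved together. Nnat, or neuronatin, a proteolipid gene of developing brain that lies within Blcap, was at 4.54, 4.77 and 4.69 in gliomas 1 to 3, against 3.66 and 3.81 in the normal brain samples and rose (0.93 ± 0.15, adjusted p = 0.00534), a call lost without normal brain 1 (adjusted p = 0.0672). Blcap was at 1.93, 1.21 and 1.14 in gliomas 1 to 3, against 1.23 and 1.23 in the normal brain samples, where glioma 1 alone lay above normal brain (0.19 ± 0.28, adjusted p = 0.594). Nap1l5, a nucleosome assembly gene within Herc3, was at 4.04, 3.48 and 3.69 in gliomas 1 to 3, against 4.87 and 4.85 in the normal brain samples. It fell (-1.12 ± 0.21, adjusted p = 0.00855), a call lost without normal brain 1 (adjusted p = 0.0657) or 2 (adjusted p = 0.0634). Herc3 fell as well (-1.26 ± 0.19, adjusted p = 0.00439). Mcts2, a translation factor retrogene within H13, was at 1.22, 1.48 and 1.15 in gliomas 1 to 3, against 1.42 and 1.52 in the normal brain samples (-0.18 ± 0.16, adjusted p = 0.381), while its host H13 rose (0.72 ± 0.15, adjusted p = 0.0134). Peg13, a noncoding RNA within Trappc9, fell by 1.55 ± 0.17 (adjusted p = 0.00184) and Trappc9 by 1.19 (adjusted p = 0.0155). The calls of H13 and Trappc9 were lost without either normal brain sample (adjusted p = 0.0865 to 0.115).

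The remaining genes stand alone in their domains. Impact, a regulator of the stress kinase GCN2 that is abundant in neurons, was at 3.04, 2.82 and 3.1 in gliomas 1 to 3, against 5.13 and 5.10 in the normal brain samples, the gliomas within 0.28 of each other, and the change was -2.12 ± 0.15, adjusted p = 0.000599, or 4.36-fold lower. Its neighbour Osbpl1a fell (-2.21 ± 0.14, adjusted p = 0.000503), and Cabyr and Hrh4 did not pass (0.16 ± 0.26 and -0.21 ± 0.28). Plagl1, a zinc finger gene that restrains growth, was at 2.42, 2.25 and 1.79 in gliomas 1 to 3, against 2.95 and 2.72 in the normal brain samples (-0.68 ± 0.23, adjusted p = 0.0606), and 1 of its 4 detected probes went the opposite way, by 0.47. Gnas, which encodes the stimulatory G protein subunit, was at 6.65, 6.45 and 6.42 in gliomas 1 to 3, against 7.0 and 6.91 in the normal brain samples on its brightest probe (-0.45 ± 0.15, adjusted p = 0.0535). Another Gnas probe was at 2.13, 1.07 and 0.98 in gliomas 1 to 3, against 5.0 and 5.13 in the normal brain samples, a difference of -3.67. Transcripts of Gnas differ in the parental copy they use, and which transcript each probe reads was not determined.

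Further genes reported as imprinted in some mouse tissue were read from a list of 38, of which 36 were tested. Of these, 6 rose, 16 fell and 14 did not pass, with a median of -0.95. The shares were 16.7% higher and 44.4% lower, against 23.6% and 27.8% of all genes tested. Igf2, the fetal growth factor, fell (-2.86 ± 0.32, adjusted p = 0.0018), as did Ins2, the insulin gene next to it (-1.81 ± 0.16, adjusted p = 0.000964). The largest falls among genes detected on all arrays were Zdbf2 (-3.82 ± 0.18), the Ras activator gene Rasgrf1 (-3.81 ± 0.33) and the serotonin receptor gene Htr2a (-3.34 ± 0.24). Dcn, Osbpl5, Th, Kcnk9 and Pon2 fell by 2.82, 1.79, 1.94, 1.11 and 0.79, where Kcnk9 and Pon2 lost their calls without either normal brain sample (adjusted p = 0.0729 to 0.113). Slc22a2 was not well above background in any glioma and at least 4.50-fold lower there. For such a bound, the dim group's arrays take the higher of the gene's signal and the lowest detected signal.

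Among the rises, the amino acid transporter gene Slc38a4 was not well above background in normal brain and at least 24.4-fold higher in glioma, and Slc22a3 at least 2.91-fold higher. Slc38a4 was at -0.41, -1.23 and -0.49 in gliomas 1 to 3, against -5.33 and -6.90 in the normal brain samples. Klf14, a transcription factor gene, rose by 2.81 ± 0.42, adjusted p = 0.00439, and the adaptor gene Gab1 by 1.96 ± 0.24, adjusted p = 0.00241. Tfpi2, a protease inhibitor gene, was called as higher, was detected in 2 of 3 gliomas and in no normal brain sample, and lost its call without glioma 2 (adjusted p = 0.101) or either normal brain sample (0.142 and 0.129). The number of rises in this list was 3 among genes detected on all 5 arrays.

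Genes that keep or read imprints were higher or did not pass. Of 22 tested genes of this kind, 11 rose and none fell by limma at an adjusted p under 0.05, where an unadjusted p under 0.05 gave 11 higher and 2 lower. The share called was 50%, close to the 51.4% of all genes tested, of which 23.6% rose and 27.8% fell. Uhrf1, which brings the maintenance methyltransferase to copied DNA, rose by 5.46 ± 0.27, adjusted p = 0.000397 with levels of 2.28, 2.94 and 2.20 in gliomas 1 to 3, against -3.12 and -2.85 in the normal brain samples. Dnmt1, that methyltransferase, rose by 1.18 ± 0.14, adjusted p = 0.00228 with levels of 1.06, 1.15 and 1.00 in gliomas 1 to 3, against -0.01 and -0.20 in the normal brain samples. Ezh2, the methyltransferase of Polycomb, rose by 3.48 ± 0.17, adjusted p = 0.000389 and the methyltransferase gene Dnmt3b by 2.36 ± 0.18, adjusted p = 0.000648. Hells, Tet1, Setdb1, Kdm1b, Smchd1, Ctcf and Mbd3 rose by 1.45, 1.10, 1.08, 1.01, 0.87, 0.51 and 0.46. Zfp57, which binds methylated imprint control regions, did not pass (-0.47 ± 0.30, adjusted p = 0.235), nor did its partner Trim28 (0.49 ± 0.22, adjusted p = 0.116). Zfp57 was called in both directions among the alternatives: with the mean of its detected probes it was higher (0.53, adjusted p = 0.0446), and without glioma 1 it was lower (-0.74, adjusted p = 0.0178). Without glioma 1, 2 genes of this list fell, Zfp57 and the demethylase gene Tet3, and the rises numbered 7 without normal brain 1 and 6 without normal brain 2. Setdb1, Ctcf, Smchd1 and Mbd3 lost their calls without either normal brain sample, Hells without normal brain 2 and Mbd3 also without glioma 1 or 2. In the same samples all 17 tested proliferation genes rose, with a median of 4.01, and their part in these values was not tested.

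The list of 57 genes near the imprinted domains that are classed as expressed from both copies gave 9 rises and 17 falls among 53 tested, with a median of -0.09. This class may not hold in every tissue, and which copy was used in these samples was not measured. Their share of calls was 49.1%, close to the 51.4% of all genes. Beside Grb10 and Zrsr1, Fignl1 and Xpo1 rose (4.51 and 0.60), B3gnt2 and Ehbp1 fell (-1.46 and -1.04), Vwc2, detected in 1 of 3 gliomas, was called as lower with a fitted value of -2.35, and Ikzf1, Zpbp and Usp34 did not pass. Beside Nnat, Ctnnbl1 rose (0.68), Vstm2l fell (-3.43), and Tti1 and Rprd1b did not pass. Beside Gnas, Npepl1 and Ctsz rose (2.00 and 1.77), Stx16 fell (-0.68) and Nelfcd did not pass. Bcl2l1, near Mcts2, fell (-1.33), Ltv1, near Plagl1, rose (0.93), and Fam13a, Pyurf and Sf3b5 did not pass. Without either normal brain sample the calls of Xpo1, Vwc2, Ehbp1, Ctnnbl1, Ctsz and Stx16 were lost, and that of Ltv1 without normal brain 1. Vwc2 also lost its call without glioma 2 (adjusted p = 0.0836) and Ctsz without glioma 1 (0.0537). The neighbours called as higher numbered 2 without normal brain 1 and 3 without normal brain 2, and those called as lower 9 and 10.

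The promoter table held 47 windows of 33 of the imprinted genes. Of these, 33 (70.2%) had 10 or more CpGs in 300 bases, against 43.5% of all 32851 windows. The hexamer TGCCGC or its reverse complement GCGGCA stood in 13 of the 47 (27.7%), against 11.6% of all windows. Overlapping windows, such as those of Mest, were each counted. The hexamer itself holds a CpG, and windows of like CpG content were not compared. A match is a run of letters and not a bound site.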

How the data were processed

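Total RNA of 3 gliomas and 2 normal brain samples was measured on 1 single-colour array each. The deposited scanner output gives intensity per spot, with background already subtracted per the file headers. The submitters' processing notes name Agilent Feature Extraction 10.7.3.1. Other deposited columns are flags of 0 or 1 for detection and outliers. The authors' deposited values per probe are log2, checked to equal the log2 processed signal (correlation 1 on every array).

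Control spots and outlier spots were left out, spots of a probe averaged, and the log2 processed signal taken minus the array's 75th percentile. Of 55681 probes, 29796 carry a RefSeq accession and 28026 were named through the gene names of RefSeq's GRCm38.p6 assembly. The brightest probe stood for each of the 21149 named genes. The 16891 genes detected (well above background) on 2 or more arrays entered a fit by lmFit and eBayes of limma 3.58.1, run under R 4.3.3, with Benjamini-Hochberg adjustment of two-sided p-values and a threshold of 0.05. The fit was tested on simulated data. Python 3.11.15 and matplotlib 3.10.9 were also used. Promoter sequences are from RefSeq, build GRCm38.p6, while the array's header names mm9, so no other coordinates are given.

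Samples were grouped by their labels. Each gene's domain and expressed parental copy came from general knowledge of mouse imprinting. All imprinted genes are accounted for, with every called gene of both related imprinting lists, fixed neighbours other than a gene that is not reported here, and up to 3 called markers per cell type list. The gene choice and lists were made with earlier results of these data known. Alternatives covered background correction, scaling, the dim-probe filter, the probe rule, the variance model, a replicate block and leaving out each array.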

Additional observations from a re-analysis of the deposited data

How the results depend on the processing

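Of the 21 imprinted genes called, 11 were called in the same direction under all alternatives that could be run for them: Meg3, Mirg, Usp29, Mest, Ndn, Magel2, Snrpn, Peg12, Ppp1r9a, Calcr and Impact. Calcr, detected in 1 of 3 gliomas, had 12 alternatives in place of 13. Requiring detection on all 5 arrays left it out, so its call was not tried under that setting. Leaving out 1 array at a time gave 4630 to 9325 called genes (1973 to 4333 higher, 2626 to 4992 lower) and 11 to 24 called imprinted genes (2 to 9 higher, 9 to 15 lower). It gave 4 to 7 higher and 12 to 18 lower genes of the further imprinted list, 6 to 11 higher and 0 to 2 lower of the list that keeps or reads imprints, and 2 to 12 higher and 9 to 19 lower neighbours. The lowest counts of all called genes and of imprinted genes called came without a normal brain sample, where the lone one left is assumed to vary like the gliomas. Of the imprinted genes, Grb10 alone was called with a changed sign, at 1.22 without glioma 1, and its values without 1 array ran from -0.66 to 1.22. Other alternatives that moved a count by over 1.5 times were the replicate block, with 5 imprinted genes higher, the unscaled value table, with 14 neighbours higher, and requiring detection on all 5 arrays, with 3 further imprinted genes higher.

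The replicate block, the numbers being all that the samples share, gave 8263 calls and 19 imprinted genes. Deviations from the group mean correlated at 0.0131 between the samples numbered 1 and at 0.049 between those numbered 2. With 2 normal brain samples, the deviations of one mirror those of the other, so these values cannot decide whether samples were paired. Gnas passed under 6 of 13 alternatives, and Ascl2, Slc22a18 and Tspan32 kept their calls under 6, 7 and 8. The causes were not tested. Naming by the scanner file's own gene column and normexp on mean signals were not run, as those columns are not in the files used here; normexp used the median signals. Dim probes such as Calcr and Zim1 limit the size of a fall that can be measured.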
